A study of Mus musculus with 4 samples.

Results

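GABA and glutamate neurons of the mouse hypothalamus at embryonic day 11 (E11) were compared by single-cell RNA sequencing, within run 2 of the E11 sample. A cell was taken as a neuron where its raw UMIs (unique molecular identifiers, each marking 1 captured RNA molecule) of Stmn2, Dcx and Elavl3 summed to at least 10. The GABA side held neurons with at least 2 UMIs of Gad1, Gad2 and Slc32a1 together and 0 of Slc17a6. The glutamate side held neurons with at least 2 UMIs of Slc17a6 and 0 of the 3 GABA genes. Of 43261 cells in the series, 4389 belonged to this run and 2800 of those met the neuron minimum. The GABA side held 799 cells (28.5% of the neurons) and the glutamate side 795 cells (28.4%), 1594 in all.

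A neuron releases GABA when it makes it with glutamate decarboxylases, encoded by Gad1 and Gad2, and loads it into vesicles with the transporter encoded by Slc32a1. It releases glutamate when a vesicular glutamate transporter is present, and Slc17a6 encodes the one used by most hypothalamic glutamate neurons. In the developing forebrain, the homeobox factors of the Dlx family with Gsx1 are known for GABA neurons. Basic helix-loop-helix (bHLH) factors of the Neurog, Neurod and Nhlh families are known in glutamate or peptide neurons. So are Sim1 and the homeobox factors Otp, Lhx9 and Uncx. The Gata and Tal factors are known for GABA neurons of the midbrain and other territories outside Dlx expression.

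The embryos were C57BL/6J mice carrying Rax-CreERT2 and the Ai14 reporter. Rax is a gene of the early hypothalamic neuroepithelium, so that tamoxifen, given at embryonic day 9 by one label and 9.5 by another, marks cells that carried the Rax-driven recombinase and their descendants with tdTomato. Hypothalami were dissected and tdTomato-positive cells sorted, so neurons from unmarked cells are missing by design. The sample's title gives E11 and its other labels E11.5, and the labels do not say how many embryos were pooled or what separates runs 1 and 2. The series holds 1 sample per age (E11, E14, P0 and P7, P meaning postnatal day), so cells are not replicates and no p-value or standard error was computed. All 95% intervals cover counting error only, by the exact Poisson method for summed UMIs and the Clopper-Pearson method for percentages of cells.

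The rule genes describe the sides and are not a result. On the GABA side Gad2 stood at 428 CPM (a gene's share of the UMIs summed over a side, scaled so that all genes add up to 1e+06) with a UMI in 97.0% of cells, Slc32a1 at 160 CPM in 84.2% and Gad1 at 73.6 CPM in 58.3%. A UMI of all 3 genes was found in 408 of 799 cells (51.1%). The median GABA-side cell held 9 UMIs of these genes, and 61 cells held exactly 2. On the glutamate side Slc17a6 stood at 260 CPM, with a median of 4 UMIs per cell. Its threshold lay nearer to the bulk of the cells, since 206 of 795 (25.9%) held exactly 2. All of these levels are per UMI of a side, which summed to 12398377 UMIs on the GABA side (median 14747 per cell) and 13859233 on the glutamate side (median 16454).

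The neurons left outside the sides were not empty of fate genes. Neither kind of transmitter UMI was found in 758 neurons, which held the 4 genes Dlx1, Dlx2, Dlx5 and Dlx6 at a summed 158 CPM and Nhlh2 at 585 CPM. Just outside the thresholds lay 109 neurons with 1 GABA UMI, at 554 CPM of the 4 Dlx genes and 298 CPM of Nhlh2. The 61 cells just inside, with 2 GABA UMIs, stood at 917 and 73.0 CPM. The 230 neurons with 1 Slc17a6 UMI stood at 28.4 CPM of the Dlx genes and 929 CPM of Nhlh2, against 12.3 and 901 CPM in the 206 cells with 2. UMIs of both kinds were found in 109 neurons, whose median depth of 19905 UMIs was higher than that of either side, and 27 of them had at least 2 of each. Those 27 cells had a median of 24262 UMIs, 359 CPM of the Dlx genes and 511 CPM of Nhlh2. Of the 27, 12 were among the cells with the 5% highest doublet scores in the run (215 of 4389 cells). Xist and a Y-linked UMI were found together in 5 of the 27, and in 162 of all 2800 neurons. No score threshold was found and none of the cells was called a doublet, so the part of doublets in the 27 was not tested.

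Several readouts that the rule did not use were close between the sides. The reporter tdTomato stood at 325 CPM on the GABA side and 327 CPM on the glutamate side. A UMI of Mki67 or Top2a, genes of dividing cells, was found in 24.8% and 23.4% of cells. Xist without a Y-linked UMI was seen in 22.5% and 23.1% of cells, and a Y-linked UMI without Xist in 64.0% and 62.0%. RNA of embryos of both sexes was thus on both sides. Xist and a Y-linked UMI were found together in 40 and 37 cells. The neuron genes Stmn2, Dcx and Elavl3, which the rule used, summed to 2888 CPM on the GABA side and 3613 CPM on the glutamate side. Among markers of other cells, the 6 microglia genes summed to 1.21 and 0.794 CPM and the 6 endothelial genes to 9.52 and 7.36 CPM, in each case GABA side first. The 8 mesenchyme genes summed to 17.1 and 4.11 CPM, most of it Col1a2, a collagen gene, at 12.2 and 1.15 CPM (log2 ratio 1.48). Col1a2 was the 1 mesenchyme gene with a mean CPM of at least 5, and the part of mesenchyme RNA in the GABA-side values was not tested. Haemoglobin and other red cell genes summed to 509 and 432 CPM, near each other on the sides. The 8 radial glia genes summed to 843 and 918 CPM, with Sox2 among them higher on the GABA side, and the 6 Schwann cell and neural crest genes to 17.3 and 33.4 CPM.

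A gene was tested where the mean of the sides' CPM was at least 5, and it was counted as higher on a side where the ratio of the CPM values, each plus 5, was at least 2. Of 10379 tested genes outside the rule genes, 136 (1.31%) were higher on the GABA side and 213 (2.05%) on the glutamate side, together 3.36%. The median log2 ratio of all tested genes, GABA over glutamate, was 0.04. The plot of all genes shows most of them along the diagonal, with the Dlx genes and Nrxn3 far to the GABA side and Nhlh2, Uncx, Nrn1 and Sim1 far to the glutamate side.

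**Figure D1:**
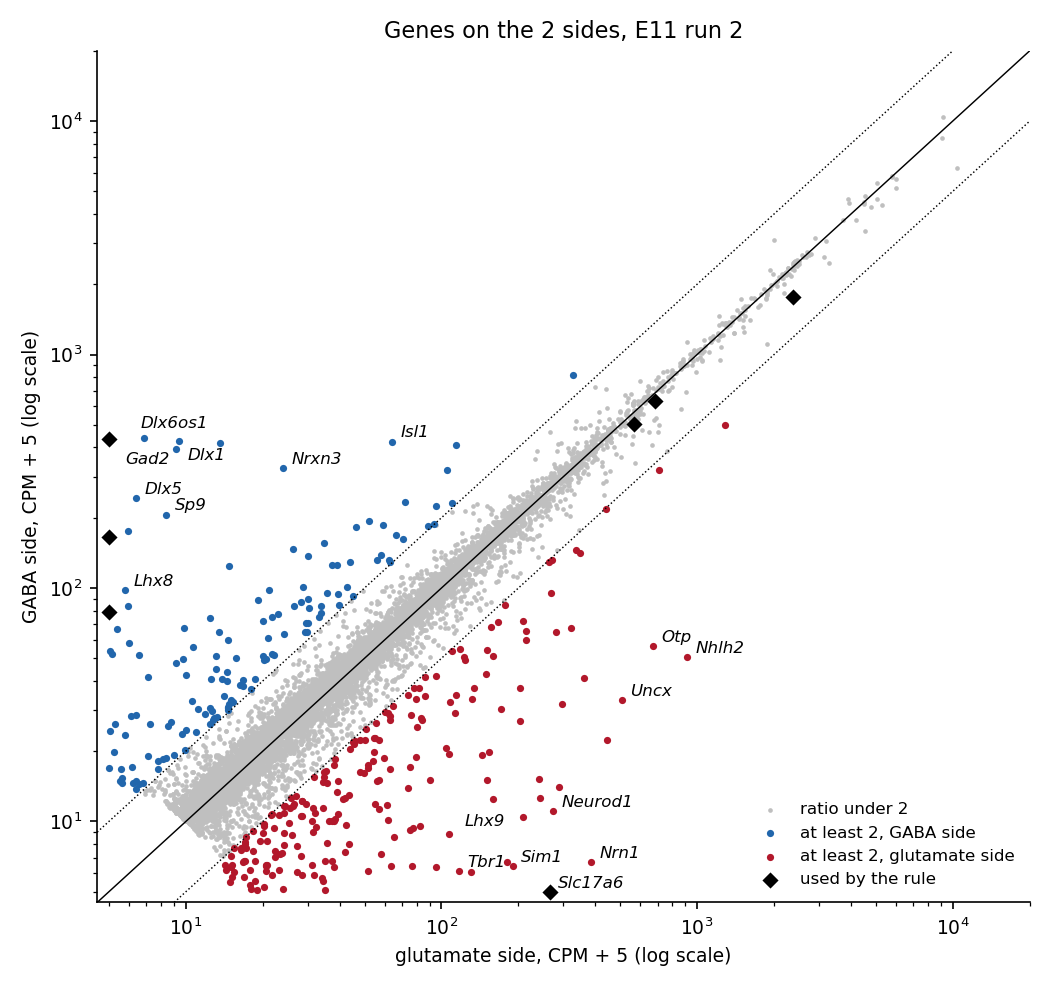
Each point is a gene, with its CPM plus 5 on the glutamate side (x axis, log scale) and on the GABA side (y axis, log scale), both from summed UMIs of E11 run 2; dotted lines mark a ratio of 2 and diamonds the genes the rule used. The 136 blue and 213 red genes lie outside the dotted lines, and the genes at the edges of the plot had values near 0 on the other side.

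The 15 named genes of the GABA side were led by the Dlx genes, which encode homeodomain factors of forebrain GABA neurons. Dlx6os1, a noncoding RNA of the Dlx5 and Dlx6 locus, stood at 434 CPM (95% interval 422 to 446) on the GABA side and at 1.88 CPM (1.23 to 2.75) on the glutamate side. Its log2 ratio was 6.00 (95% interval 5.82 to 6.14), and it had a UMI in 86.0% of GABA-side and 2.77% of glutamate-side cells. Dlx1 stood at 420 and 4.40 CPM (log2 ratio 5.50) and Dlx2 at 389 and 4.18 CPM (5.42). Dlx5 stood at 237 and 1.37 CPM (5.25), and Dlx6 at 78.3 and 0.938 CPM (3.81). These genes lie in pairs on the genome, Dlx1 at chr2:71528113-71533981 on the plus strand with Dlx2 at chr2:71543408-71546754 on the minus strand, and Dlx6 at chr6:6863334-6868568 with Dlx5 at chr6:6877805-6882085 (GRCm38). Dlx1as, an antisense RNA over Dlx1, had 584 UMIs on the GABA side and 2 on the glutamate side (log2 ratio 3.34, 95% interval 3.23 to 3.38). Whether the authors' counting used strand is not given in the sources used here, so reads of Dlx1 and Dlx1as may not be separated.

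The start regions of Dlx1 and Dlx2 are shown because both genes were present on the GABA side and nearly absent from the other. Each sequence is the RefSeq window from 250 bases before to 50 bases after the start (GRCm38.p6), read along the gene's strand. The Dlx1 window lies inside the gene span given above, which is from another annotation (GENCODE) and begins further upstream. Neither window holds TAATTA, the core letters of many homeodomain sites, or the E-box letters CAGCTG and CAGATG that bHLH factors are known for, on either strand.
Dlx1, chr2:71529195-71529494, plus strand: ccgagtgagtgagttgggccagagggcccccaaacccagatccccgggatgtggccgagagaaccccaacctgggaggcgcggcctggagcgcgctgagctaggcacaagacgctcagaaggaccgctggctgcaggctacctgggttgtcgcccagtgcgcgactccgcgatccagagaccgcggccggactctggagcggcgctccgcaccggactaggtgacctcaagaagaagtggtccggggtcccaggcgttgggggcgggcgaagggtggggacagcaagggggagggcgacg
Dlx2, chr2:71546705-71547004, minus strand: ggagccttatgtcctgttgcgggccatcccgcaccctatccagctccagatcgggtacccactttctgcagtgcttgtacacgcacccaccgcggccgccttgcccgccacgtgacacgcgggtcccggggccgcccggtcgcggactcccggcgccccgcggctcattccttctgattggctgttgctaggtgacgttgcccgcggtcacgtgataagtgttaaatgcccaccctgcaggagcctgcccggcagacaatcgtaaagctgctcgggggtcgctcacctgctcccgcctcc

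Genes that act with the Dlx family in forebrain GABA neurons stood among the Dlx genes in the ranking, with Sp9 and Lhx8 above Dlx6. The zinc finger genes Sp9 and Sp8 stood at 201 CPM on the GABA side and 3.39 CPM on the glutamate side (log2 ratio 4.62) and at 61.9 and 0.361 CPM (3.64). Lhx8 and Lhx6, LIM-homeobox genes of ventral forebrain neurons, were carried by fewer cells. Lhx8 stood at 93.2 and 0.794 CPM (4.08), in 13.3% of GABA-side cells. Lhx6 had 607 UMIs on the GABA side and 1 on the glutamate side (log2 ratio 3.41, 95% interval 3.31 to 3.43), in 19.1% of GABA-side cells. Gsx1, a progenitor homeobox gene upstream of the Dlx genes, stood at 53.3 and 1.01 CPM (3.28), and Hmx2, a homeobox gene of the hypothalamus, at 119.8 and 9.74 CPM (3.08). The named genes of other proteins were Nrxn3, a presynaptic adhesion molecule, at 321 and 19.0 CPM (3.76), and Grik3, a kainate receptor subunit, at 46.9 and 1.59 CPM (2.98). Nrxn3 was broad, with a UMI in 89.9% of GABA-side cells.

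**Figure D2:**
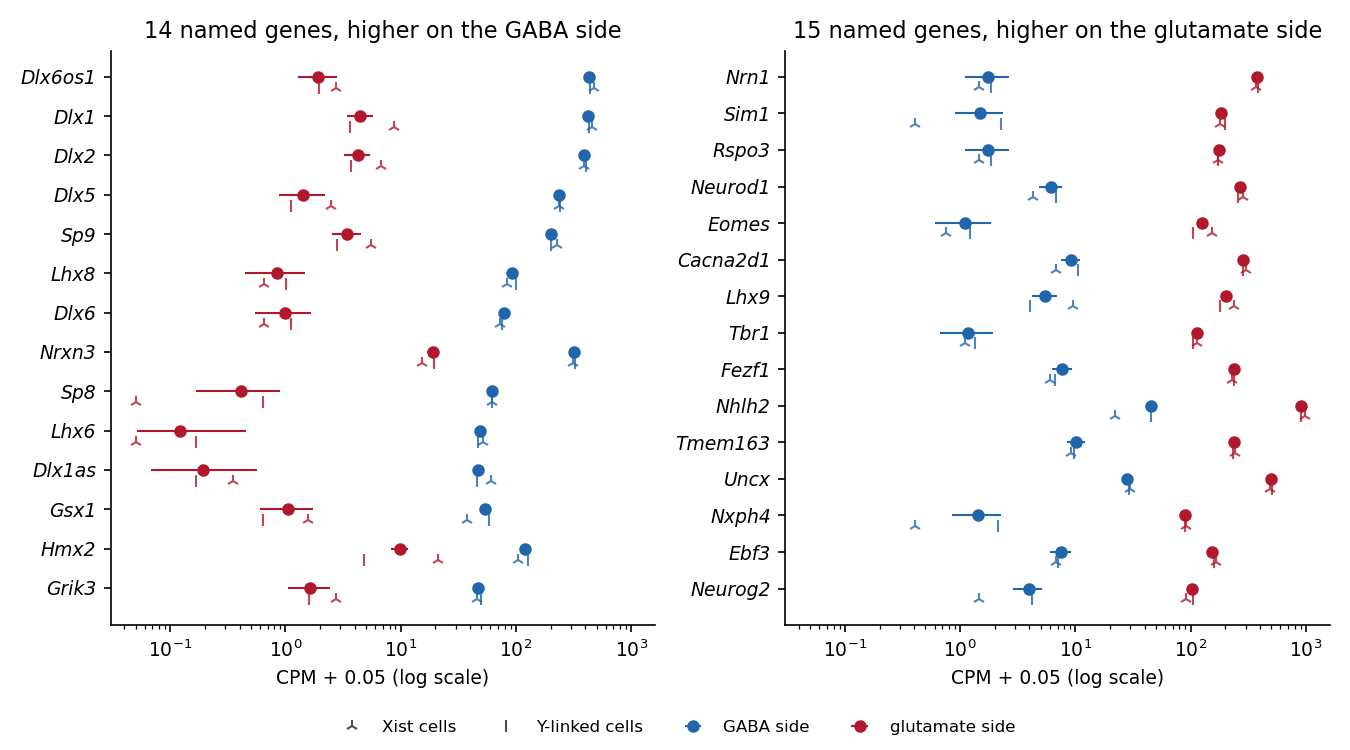
CPM plus 0.05 (log scale) of the named genes of each direction (14 of the GABA side and 15 of the glutamate side) on the GABA side (blue) and the glutamate side (red), with exact Poisson 95% intervals as bars; small marks give the same in Xist cells (Xist without a Y-linked UMI) and in cells with a Y-linked UMI and no Xist. For these genes the values of the 2 sides stand apart by more than the intervals, as their choice by ratio on these same cells implies.

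The gene lists were chosen with earlier results of these data known, so their counts are not independent of these data. Over all 10379 tested genes, 1.31% were higher on the GABA side and 2.05% on the glutamate side. In the list of the Dlx cascade and its partners, 18 of 23 tested genes were higher on the GABA side and 1 on the glutamate side. The median log2 ratio of this list was 3.28. Isl1, a LIM-homeobox factor of several hypothalamic neuron types, stood at 419 and 59.0 CPM (2.73). Meis2 (403 and 109 CPM), Six3 (314 and 101 CPM), Zeb2 (134 and 52.9 CPM) and Npas1 (11.8 and 0.577 CPM) were also higher on the GABA side. The exception was Ebf1, at 60.1 CPM on the GABA side and 275 CPM on the glutamate side (log2 ratio -2.11). Pbx3, Zfhx3, Meis1 and Etv1 did not reach a ratio of 2.

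The second list of GABA factors behaved less evenly, with a median log2 ratio of 0.15. Of 15 tested genes, 4 were higher on the GABA side and 1 on the glutamate side. Together these were 33.3% of its tested genes, against 3.36% of all tested genes. Gata3 stood at 19.4 CPM on the GABA side from 3.25% of its cells, with 1 UMI on the glutamate side (log2 ratio 2.26, 95% interval 2.15 to 2.29). Tal2 stood at 18.6 and 0.794 CPM (2.02) and Tal1 at 14.8 and 0.216 CPM (1.92, 95% interval 1.78 to 1.98). Nkx2-2, a homeobox factor of ventral progenitors, was broader, at 33.2 and 11.3 CPM (1.23) in 25.0% and 8.30% of cells. Gata2 (9.28 and 0.216 CPM) fell just under the mean CPM that a tested gene needed. The LIM-homeobox factor Lhx1 did not reach a ratio of 2, at 167 and 115 CPM, while Lhx5 was higher on the glutamate side, at 46.4 and 154 CPM (-1.63).

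Within the GABA side, 726 of 799 cells (90.9%, 95% interval 88.6 to 92.8%) had a UMI of Dlx1, Dlx2, Dlx5 or Dlx6, and 89.3% did with every cell thinned to 5000 UMIs. In the 172 cells of the run with no UMI of the 3 neuron genes, which had a median depth of 13856 UMIs, the share was 13.4%, and on the glutamate side it was 12.6%. Isl1 had a UMI in 67.0% of GABA-side cells, Sp9 in 59.7% and Lhx1 in 46.4%. In the cells with no neuron UMI these shares were 5.81%, 0.581% and 2.33%.

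Hmx2 and Sp9 marked GABA-side cells that overlapped in part. Of the 178 cells with an Hmx2 UMI (22.3% of the side), 161 (90.4%) also had Hmx3, its neighbour at chr7:131542867-131544925, and 47 (26.4%, 95% interval 20.1 to 33.5%) had Sp9. Of the 621 cells without Hmx2, 430 (69.2%) had Sp9. Gsx1 was found in 51.7% of the Hmx2 cells and 10.3% of the others. Lhx6 cells often had Sp9: 133 of 153 (86.9%) did, 68 (44.4%) had Lhx8, 60 (39.2%) had Isl1 and 9 (5.88%) had Hmx2, against 53.3%, 5.88%, 73.5% and 26.2% of the cells without Lhx6. Thinned to 5000 UMIs, Sp9 was found in 11.6% of Hmx2 cells and 51.2% of the others, so the pattern was also there at equal depth. The 31 Gata2 cells formed another small kind, in which 29 had Lhx1, 25 had Tal1 and 7 had a Dlx UMI.

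The 73 GABA-side cells with no Dlx UMI were as deep as the rest, with a median of 14777 UMIs against 14746.5, and carried other factors. Of these, 28 (38.4%) had a UMI of Gata2, Gata3, Tal1 or Tal2, against 14 of the 726 Dlx cells. Another 29 (39.7%) had Otp and none of the Gata and Tal genes, and 16 had neither. Gad2 stood at 310 CPM in the cells without Dlx and 440 CPM in the Dlx cells, Slc32a1 at 120 and 165 CPM and Gad1 at 43.2 and 76.8 CPM. Lhx1 stood at 527 CPM without Dlx and 129 CPM with it, Tcf7l2 at 455 and 19.7 CPM, Otp at 389 and 15.7 CPM, Nhlh2 at 326 and 16.0 CPM and Uncx at 225 and 7.58 CPM. These sums mix unlike cells: Nhlh2 stood at 52.3 CPM in the 28 Gata or Tal cells and 543 CPM in the 29 with Otp and neither of those, and Tcf7l2 at 980 and 41.8 CPM. Pomc, the precursor of melanocortin peptides, stood at 809.6 and 26.5 CPM, and 6 of the 73 cells held at least 5 Pomc UMIs. Those 6 cells had a median of 28456.5 UMIs and 95.7 CPM of the 3 GABA genes, against 474 CPM in all cells without Dlx, and 0 UMIs of Gad1 or Slc32a1. The part of doublets in them was not tested.

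The glutamate side was led by transcription factors of glutamate and peptide neurons together with surface and secreted proteins. Nrn1, which encodes a membrane-anchored neuritin that promotes neurite growth, stood at 1.69 CPM (95% interval 1.05 to 2.59) on the GABA side and 379 CPM (369 to 389) on the glutamate side. Its log2 ratio was -5.84 (95% interval -5.99 to -5.66), with a UMI in 2.50% and 84.8% of cells. Cacna2d1, an auxiliary subunit of voltage-gated calcium channels, stood at 9.03 and 282 CPM (-4.36) in 8.26% and 91.1% of cells. Tmem163, a zinc transporter, stood at 10.2 and 236 CPM (-3.99). Rspo3, a secreted enhancer of Wnt signalling, stood at 1.69 and 176 CPM (-4.76), and Nxph4, a secreted neurexophilin, at 1.37 and 89.8 CPM (-3.89).

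All 10 tested bHLH and T-box genes of the list of glutamate neuron factors were higher on the glutamate side, against 2.05% of all tested genes. Their median log2 ratio was -3.26. The list includes the proneural Neurog2 and Neurog1, the bHLH genes Neurod1, Neurod2, Nhlh1 and Nhlh2, and the T-box genes Eomes and Tbr1. Nhlh2, known for neurons of the melanocortin and reproductive axes, stood at 45.4 CPM on the GABA side and 910 CPM on the glutamate side (-4.18), with a UMI in 97.1% of glutamate-side cells. Neurod1 stood at 6.05 and 267 CPM (-4.62) and Neurog2 at 3.87 and 102 CPM (-3.59). Eomes stood at 1.05 and 125 CPM (-4.43) and Tbr1 at 1.13 and 112 CPM (-4.26). Neurod2, of later neurons, was low but on the same side, at 0.161 and 12.9 CPM (-1.80, 95% interval -1.85 to -1.65). On the GABA side 384 of the 563 Nhlh2 UMIs came from the 73 cells with no Dlx UMI.

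The start regions of Nhlh2 and Tbr1 are shown because the first holds both E-boxes and the second 2 copies of the homeodomain letters, and that of Slc17a6 because it encodes the transporter that defines the side. The windows are from RefSeq (GRCm38.p6), as above, and capitals mark these 3 motifs on either strand. In Nhlh2 a CAGATG begins 127 bases before the start and a CAGCTG 45 bases after it. In Tbr1 the copies of TAATTA begin 33 and 18 bases before the start. The Tbr1 window lies inside the gene's span in GENCODE, which begins at chr2:61802930. The second of 2 annotated Slc17a6 starts has a TAATTA beginning 81 bases and a CAGATG beginning 205 bases before it, and the first has neither. Windows picked for their motifs do not compare the sides. On the glutamate side, those of Neurod1, Lhx9 and Fezf1 held none of the 3 motifs. Those of Sim1 and Otp held CAGATG, and that of Uncx held TAATTA. On the GABA side, a window of each of Lhx6, Isl1, Hmx2 and Gad2 held an E-box. Other annotated windows of Lhx6 and Hmx2 held none of the motifs, nor did those of Gad1, Slc32a1, Sp9 and Lhx8.
Nhlh2, chr3:102009895-102010194, plus strand: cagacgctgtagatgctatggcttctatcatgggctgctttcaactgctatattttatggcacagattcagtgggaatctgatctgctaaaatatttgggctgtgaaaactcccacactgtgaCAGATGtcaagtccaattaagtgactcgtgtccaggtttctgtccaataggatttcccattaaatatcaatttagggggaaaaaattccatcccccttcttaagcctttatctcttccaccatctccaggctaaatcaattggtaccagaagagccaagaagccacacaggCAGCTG
Tbr1, chr2:61804203-61804502, plus strand: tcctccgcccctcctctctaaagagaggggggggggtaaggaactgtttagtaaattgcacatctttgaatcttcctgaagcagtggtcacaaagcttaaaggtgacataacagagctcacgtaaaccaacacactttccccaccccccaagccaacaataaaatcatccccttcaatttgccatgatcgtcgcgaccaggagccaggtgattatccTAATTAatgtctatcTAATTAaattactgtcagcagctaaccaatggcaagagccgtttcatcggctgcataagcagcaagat
Slc17a6, second start, chr7:51624387-51624686, plus strand: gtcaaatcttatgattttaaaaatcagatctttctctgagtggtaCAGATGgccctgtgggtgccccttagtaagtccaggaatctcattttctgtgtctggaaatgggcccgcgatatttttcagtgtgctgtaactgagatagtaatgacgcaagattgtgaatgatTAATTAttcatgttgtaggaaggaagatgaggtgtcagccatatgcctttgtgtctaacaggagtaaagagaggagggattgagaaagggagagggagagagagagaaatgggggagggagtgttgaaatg

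Shares of windows with each motif were counted over the called genes and over all tested genes. Of the called genes, 149 of the 213 genes higher on the glutamate side and 97 of the 136 higher on the GABA side had at least 1 RefSeq window. TAATTA was in 12 of 199 windows (6.03%) of the glutamate set, 8 of 145 (5.52%) of the GABA set, 2.49% of 10202 windows of tested genes and 5.29% of all 32851 windows. CAGCTG was in 21.6%, 15.9%, 14.52% and 16.3%, in the same order, and CAGATG in 17.6%, 11.03%, 10.6% and 17.2%. In both sets the share with TAATTA was above that of tested genes and near that of all windows. In the glutamate set the shares with the E-boxes were also above those of tested genes. These are counts of letters in short windows, with no test, and say nothing of binding.

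Homeobox and other selectors of hypothalamic glutamate neurons split in both directions, with a median log2 ratio of -1.85. Of 29 tested genes, 15 were higher on the glutamate side and 4 on the GABA side. Together these were 65.5% of the tested selectors, against 3.36% of all tested genes. Sim1 and Otp, which are required for neuroendocrine neurons of the paraventricular and supraoptic nuclei, stood at 1.45 and 185 CPM (-4.88) and at 51.2 and 668 CPM (-3.58). Uncx stood at 28.2 and 502 CPM (-3.93), Lhx2 at 36.1 and 357 CPM (-3.14), Fezf1 at 7.66 and 238 CPM (-4.26) and Lhx9 at 5.40 and 204 CPM (-4.33). Ebf3 and Ebf2, of the same family as Ebf1, stood at 7.42 and 153 CPM (-3.67) and at 10.0 and 146 CPM (-3.33). The 4 exceptions were Hmx2, Hmx3 (59.7 and 8.51 CPM), Pou3f1 (150.4 and 29.7 CPM) and Pou3f3 (95.8 and 37.6 CPM). Nr5a1, the factor of the ventromedial nucleus, stood at 2.34 and 9.09 CPM and did not reach a ratio of 2. Nr2f1 and Nr2f2 were abundant on both sides, at 493 and 701 CPM and at 381 and 759 CPM.

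The glutamate side shared Nhlh2 and Uncx widely and divided by other factors. Uncx had a UMI in 84.4% of cells, Fezf1 in 77.2%, Sim1 in 58.1%, Otp in 55.0%, Lhx9 in 45.7%, Eomes in 34.6% and Tbr1 in 33.3%. In the cells with no neuron UMI, Fezf1 was found in 35.5% and the other 6 in at most 4.07%. Of 462 Sim1 cells 374 (81.0%, 95% interval 77.1 to 84.4%) had Otp, against 63 of 333 (18.9%) of the cells without Sim1. Of 265 Tbr1 cells 248 (93.6%, 95% interval 89.9 to 96.2%) had Lhx9, against 21.7% of the others, and 25.7% had Otp, against 69.6% of the others. A smaller kind was the 67 Nr5a1 cells, of which 25.4% had Uncx against 89.8% of the rest and 46.3% had Isl1 against 8.65%. Foxb1, in 20 cells (2.52%), was below its share in the cells with no neuron UMI, 13.95%.

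**Figure D3:**
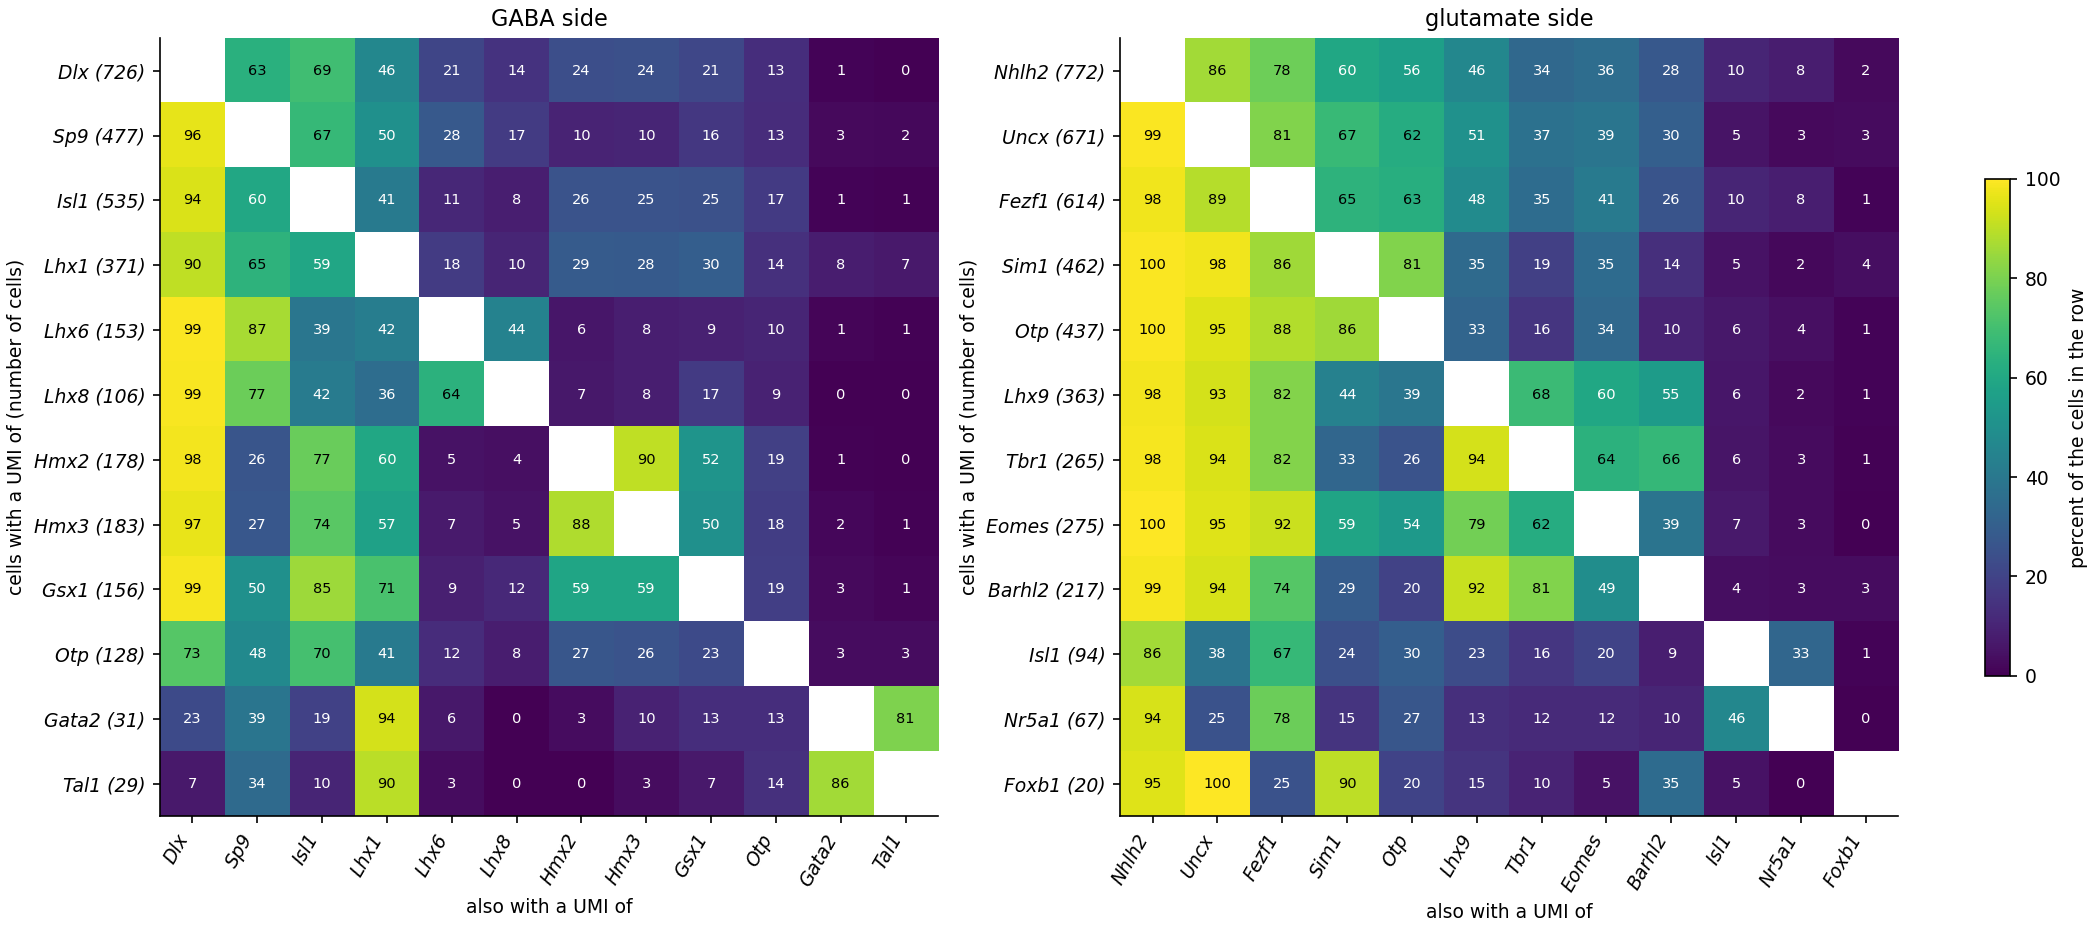
For each factor in a row (with its number of cells in brackets), the percentage of those cells that also had a UMI of the factor in the column, for the GABA side (left) and the glutamate side (right), with colour from 0 to 100 percent. The Hmx2 row on the left has 26 under Sp9 and 90 under Hmx3, and the Tbr1 row on the right has 94 under Lhx9 and 26 under Otp.

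The Sim1 cells and the Lhx9 cells carried further genes, and the 2 sets overlapped. Of 363 Lhx9 cells, 160 (44.1%) also had Sim1, against 69.9% of the cells without Lhx9. Otp was found in 143 of them (39.4%), against 68.1%. Otp stood at 1113 CPM in glutamate-side cells with Sim1 and 56.5 CPM in those without, and Sim2 at 25.9 and 0.685 CPM. Cartpt, a feeding peptide gene, stood at 74.7 and 13.5 CPM, and Oxt, the oxytocin gene, at 7.85 and 0.171 CPM. Lower with Sim1 were Calb1 (28.4 and 268 CPM), Sox14 (3.86 and 88.1 CPM), Nkx2-1 (34.8 and 166 CPM) and Isl1 (11.3 and 125 CPM). Lhx9 cells held Tbr1 at 252 CPM against 2.96 CPM in the others, Barhl2 at 127 and 4.64 CPM and Calb2 at 103 and 1.93 CPM. These levels describe subsets picked by 1 of their genes, and those of linked genes follow in part from that choice.

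Region factors stood in both directions, 5 of 27 tested genes higher on the GABA side and 6 on the glutamate side. Together these were 40.7% of the tested region factors, against 3.36% of all tested genes. The median log2 ratio of the list was 0.22. Six6 (142 and 21.4 CPM), Nkx2-1 (220 and 90.0 CPM), Shh (45.1 and 10.8 CPM), Vax1 (46.1 and 15.01 CPM) and Pax6 (47.3 and 16.7 CPM) were higher on the GABA side. Of these, Six6, Nkx2-1 and Shh are genes of the basal and tuberal hypothalamus, and Pax6 is a gene of dorsal and alar territory. Higher on the glutamate side were Rspo3, Mab21l2 (4.52 and 77.3 CPM), Emx2 (4.44 and 27.3 CPM), Emx1 (1.21 and 12.8 CPM), Mab21l1 (3.23 and 15.7 CPM) and Nkx6-2 (5.73 and 16.8 CPM). Rax itself, whose promoter drove the recombinase, stood at 16.5 and 10.5 CPM.

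Of 29 tested maturation genes, 0 were higher on the GABA side and 2 on the glutamate side, together 6.90% against 3.36% of all tested genes. Their median log2 ratio was -0.13, against 0.04 over all tested genes. The 2 were Rbfox3, which encodes the NeuN antigen, at 13.95 and 74.5 CPM (-2.07), and Syt4, a synaptotagmin, at 48.6 and 105 CPM (-1.03). The neurofilament genes Nefm (245 and 428 CPM) and Nefl (203 and 301 CPM), Map2 (577 and 859 CPM) and Syt1 (219 and 146 CPM) did not reach a ratio of 2. Of 21 tested progenitor and commitment genes, Sox2 (179.5 and 83.6 CPM) and the Notch ligand Dll1 (59.7 and 24.2 CPM) were higher on the GABA side. Igfbpl1 (492 and 1280.1 CPM) and Id2 (37.1 and 89.8 CPM) were higher on the glutamate side. Of 15 proliferation genes only Ccnd1 reached a ratio of 2, at 67.3 CPM on the GABA side and 204 CPM on the glutamate side (-1.53).

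**Figure D4:**
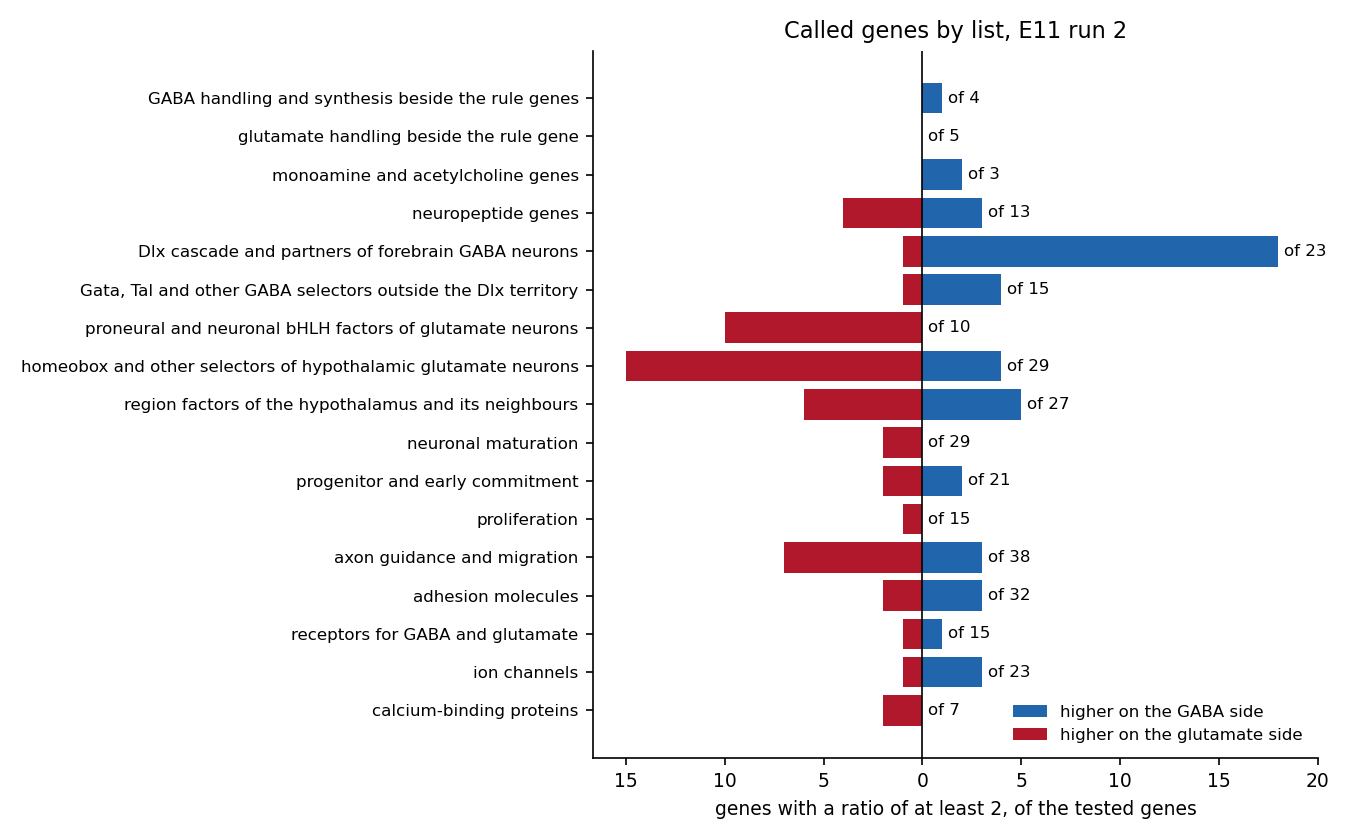
Number of genes with a ratio of CPM plus 5 of at least 2, to the right for the GABA side and to the left for the glutamate side, in each list, with the number of tested genes beside the bars. The longest bars are the 18 of 23 Dlx cascade genes and the 15 of 29 homeobox and other selectors. Next are the 10 of 10 bHLH and T-box genes. Over all tested genes 1.31% (GABA side) and 2.05% (glutamate side) had such a ratio, and the lists were chosen with earlier results known.

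Beside the genes of the rule, 2 of 3 tested monoamine and acetylcholine genes were higher on the GABA side, against 1.31% of all tested genes. The 2 were Ddc (37.3 CPM on the GABA side and 4.98 CPM on the glutamate side) and Slc18a2 (46.0 and 8.08 CPM). They serve aromatic amine synthesis and vesicular loading. Th, which makes the dopamine precursor, lay just under the ratio, at 65.7 and 30.9 CPM (0.98). Abat, which breaks GABA down, stood at 73.3 and 36.9 CPM and did not reach a ratio of 2. Of 5 tested genes of glutamate handling, 0 reached it in either direction. Slc17a7, a second vesicular glutamate transporter, was under the tested level, at 0.0807 and 7.79 CPM.

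Peptide genes were few and often carried by few cells. Of 13 tested, Npy (21.2 and 0.289 CPM), Pnoc (84.0 and 14.07 CPM) and Sst (132 and 25.2 CPM) were higher on the GABA side. Nxph4, Adcyap1 (0.726 and 29.1 CPM), Cartpt (13.2 and 48.9 CPM) and Nts (1.77 and 11.8 CPM) were higher on the glutamate side. Both directions together made 53.8% of the tested peptide genes, against 3.36% of all tested genes. Pnoc had a UMI in 36.0% and 11.07% of cells and Adcyap1 in 1.001% and 27.0%. Sst rested on few cells: 5 cells held 81.3% of its 1631 GABA-side UMIs and 1 of them held 634. Npy had 70.3% of its 263 GABA-side UMIs in 5 cells, and Nts 74.4% of its 164 glutamate-side UMIs. Pomc did not reach a ratio of 2, at 101 and 72.7 CPM.

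Among genes of axon guidance and migration, 3 of 38 tested were higher on the GABA side and 7 on the glutamate side. Together these were 26.3% of the tested genes of the list, against 3.36% of all tested genes. Epha4 (70.1 and 16.7 CPM) and Epha3 (14.8 and 148 CPM), receptors of the same ephrin family, stood in opposite directions, with log2 ratios of 1.79 and -2.96. Plxna2, a semaphorin receptor subunit, and Erbb4, the neuregulin receptor of migrating interneurons, stood at 84.3 and 25.0 CPM and at 23.1 and 8.30 CPM. The adhesion genes Cntn2 (14.195 and 139 CPM) and Nrcam (79.5 and 173 CPM), the semaphorin receptor Nrp2 (22.7 and 78.2 CPM), Sema6a (49.6 and 113 CPM), Sema5a (3.23 and 14.4 CPM) and Unc5b (7.82 and 21.9 CPM) were higher on the glutamate side. The calcium channel subunits of the alpha-2-delta family also stood apart. Cacna2d3 (51.1 and 5.63 CPM, log2 ratio 2.40) and Cacna2d2 (73.2 and 28.7 CPM, 1.21) were higher on the GABA side, opposite to Cacna2d1. Of 23 tested ion channel genes the only other one was Kcnd2, a potassium channel, at 13.5 and 3.17 CPM.

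Of 32 tested adhesion genes, Nrxn3, Ntng1 and Cdh7 were higher on the GABA side and Ncam2 and Tenm1 on the glutamate side. Nrxn2, another neurexin, did not reach a ratio of 2, at 179 and 147 CPM. Of 15 tested receptor genes for GABA and glutamate, Grik3 was higher on the GABA side and Grin2a (2.34 and 18.8 CPM) on the glutamate side. Of 7 tested calcium-binding protein genes, Calb2 (1.13 and 46.6 CPM, from 9.69% of glutamate-side cells) and Necab2 (7.42 and 36.3 CPM) were higher on the glutamate side. Genes with the ratio in either direction were 15.6% of the adhesion list, 13.3% of the receptor list and 28.6% of the calcium-binding list. Over all tested genes the share was 3.36%.

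Cells of each sex come from different embryos, but all were among the cells on which the genes were called, so that the same sign in both follows in large part from that choice. Xist cells, without a Y-linked UMI, numbered 180 on the GABA side and 184 on the glutamate side, and those with a Y-linked UMI and no Xist 511 and 493. All 213 genes higher on the glutamate side and 135 of the 136 higher on the GABA side had a ratio of the same sign in both. The exception in sign was Sst, at 28.6 CPM on the GABA side and 60.1 CPM on the glutamate side in Xist cells (log2 ratio -0.95), against 180.5 and 5.11 CPM in cells with a Y-linked UMI (4.20). In the Xist cells of the glutamate side, 198 of its 199 UMIs came from 1 cell. The embryos shared library and run, so this is not a replicate of the sample.

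The same cell rule was applied to the other runs, whose cells were not used to choose the genes. In E11 run 1 it left 35 cells on each side, with median depths of 6931 and 9991 UMIs, and no cell barcode was shared with run 2. There 7.66% of 9670 tested genes were higher on the GABA side and 9.82% on the glutamate side, a larger background than in run 2, with fewer cells and fewer UMIs per cell. Of the 136 GABA-side genes of run 2, 114 were tested, 106 had the same sign and 85 a ratio of at least 2. Of the 213 glutamate-side genes, 187 were tested, 179 had the same sign and 153 a ratio of at least 2. Of all genes tested in run 1, 49.0% had a sign toward the GABA side and 51.0% toward the glutamate side. A ratio of at least 2 in the other direction was seen for 1 of the GABA-side genes of run 2, Sst (0 and 83.4 CPM). It was also seen for 3 of the glutamate-side genes, Chchd10, Thsd4 and Filip1, which were named after their values were seen. The Sst UMIs of run 1 came from 5.71% of its 35 glutamate-side cells. All 30 named genes were on the same side with a ratio of at least 2, but some rested on few UMIs. Lhx6 and Dlx1as had 3 UMIs against 0 (95% interval of the log2 ratio -0.36 to 1.67), and Gsx1 and Grik3 4 against 0, with intervals that also reach below 0. The 12 Lhx8 UMIs came from 2.86% of the 35 GABA-side cells. Dlx1 had 383 CPM on the GABA side and 0 UMIs on the glutamate side, and Nhlh2 stood at 73.0 and 923 CPM. Run 1 held only cells with a tdTomato UMI, while 557 of the 4389 cells of run 2 had none.

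**Figure D5:**
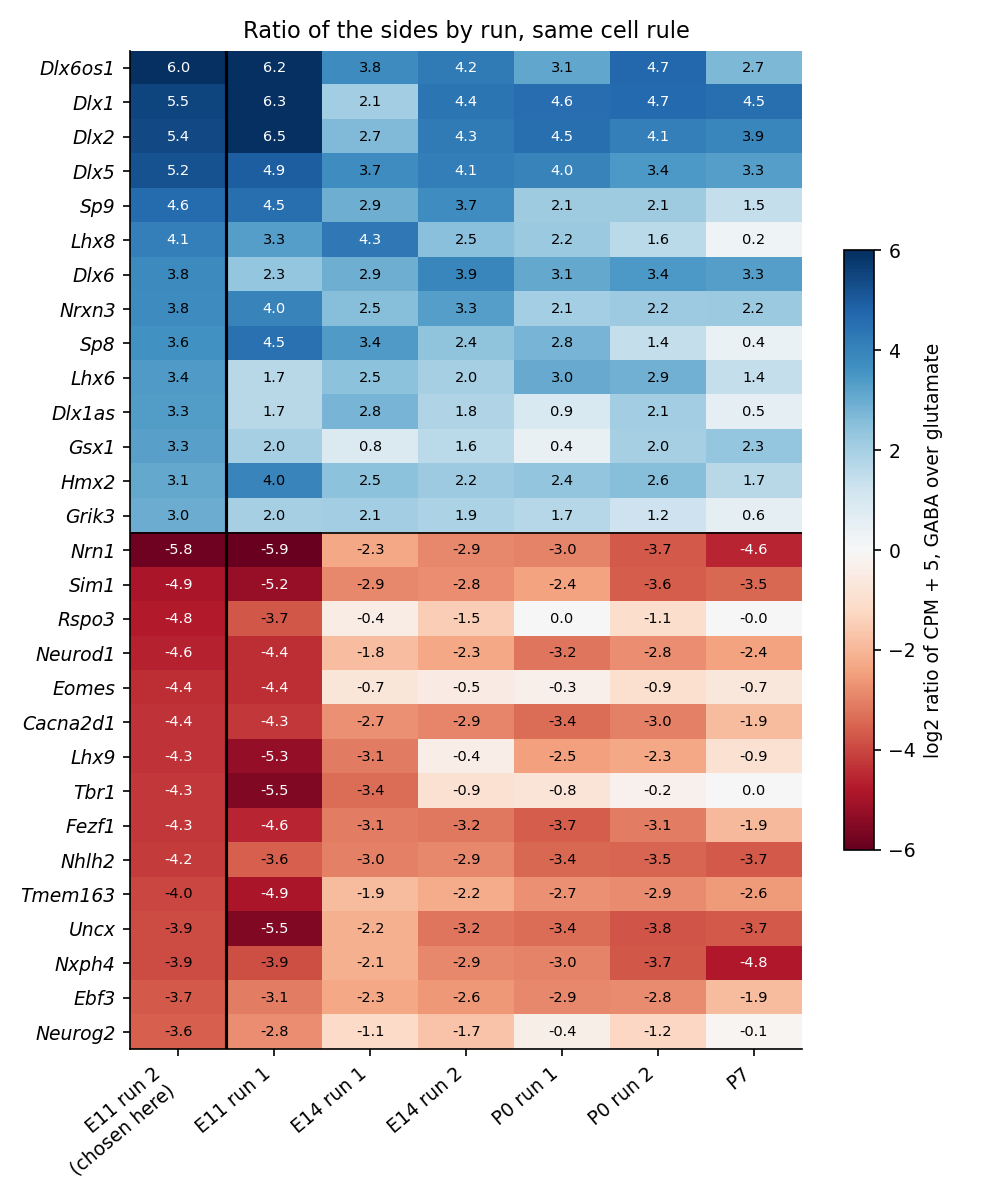
Log2 ratio of CPM plus 5, GABA over glutamate (colour from -6 to 6 and printed value), for 29 of the named genes in each run, with the run that chose them in the first column. The GABA-side genes stay above 0 in all runs, the glutamate-side genes below 0 except Rspo3 in P0 run 1 and Tbr1 at P7, and where a side had 0 UMIs the value rests on the 5 CPM added and is not a bound.

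At later ages many of these genes stood on the same side, with smaller ratios. In E14 run 2, where the rule left 5546 GABA-side and 1350 glutamate-side cells, 0.713% of tested genes were higher on the GABA side and 0.963% on the glutamate side. Of the tested E11 genes, 106 of 118 GABA-side genes had the same sign and 50 a ratio of at least 2, and of the glutamate-side genes 159 of 177 and 60. The small E14 run 1 (65 and 26 cells, background 4.54% and 5.8%) had 101 of 116 and 57, and 150 of 175 and 99. In P0 run 2 (2625 and 1132 cells, background 0.587% and 1.06%) the counts were 92 of 117 and 38, and 150 of 173 and 41. In P0 run 1 (403 and 124 cells, background 1% and 0.912%) they were 86 of 113 and 38, and 138 of 170 and 35. At P7 (1460 and 654 cells, background 1.17% and 1.82%) they were 84 of 110 and 31, and 118 of 164 and 37. Of all tested genes, 59.9% in E14 run 2, 57.9% in P0 run 2 and 58.4% at P7 had a sign toward the GABA side. Toward the glutamate side the shares were 40.1%, 42.1% and 41.6%. In E14 run 1 the shares toward the GABA and glutamate sides were 51.2% and 48.8%, and in P0 run 1 52.4% and 47.6%. A ratio of at least 2 in the opposite direction was found for 2 GABA-side and 1 glutamate-side genes in E14 run 2, 6 and 1 in P0 run 2 and 8 and 5 at P7. The counts were 1 and 3 in E14 run 1, with Erbb4 and Neurog1 among them, and 4 and 3 in P0 run 1. The median log2 ratio of the 15 named GABA-side genes was 3.81 in E11 run 2, 3.32 in E14 run 2, 2.56 in P0 run 2 and 2.24 at P7. That of the 15 named glutamate-side genes was -4.26, -2.59, -2.86 and -1.94. The genes were ranked on E11 run 2, so a smaller ratio elsewhere follows in part from that choice, and ages differ in run and depth. Of run 2 barcodes, 16 recurred in E14 run 2, 8 in P0 run 2 and 9 at P7.

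Levels and ratios of members differed between runs, in which age, run and depth cannot be told apart. Dlx1 stood at 341 and 11.52 CPM in E14 run 2, 315 and 7.65 CPM in P0 run 2 and 158 and 2.18 CPM at P7. Nhlh2 stood at 25.4 and 218 CPM, 11.3 and 176 CPM and 3.83 and 107 CPM in the same runs, and Nrn1 at 8.14 and 91.7, 4.58 and 120 and 2.66 and 178 CPM. Otp, with a log2 ratio of -3.58 in E11 run 2, had -2.16, -1.24 and -0.04. Tbr1 stood at 10.6 CPM on the glutamate side in E14 run 2 and at 0.396 CPM at P7, and Lhx8 at 25.3 CPM on the GABA side in E14 run 2 and 0.993 CPM at P7. The E14 runs differed in these genes, since the small E14 run 1 had Tbr1 at 75.4 CPM on the glutamate side (log2 ratio -3.36). It had Lhx8 at 148 CPM on the GABA side and Dlx1 at 273 and 61.4 CPM. Its glutamate side was 26 cells, with 27 Tbr1 UMIs from 19.2% of them and 22 Dlx1 UMIs from 23.1%. Gata3, at 19.4 CPM on the GABA side in E11 run 2, stood at 0.0202 CPM in E14 run 2, 1.19 CPM in P0 run 2 and 0 at P7. Npy on the GABA side stood at 38.6, 159 and 1785 CPM in the 3 later runs. Six6 kept its side, with log2 ratios of 2.03, 3.11 and 3.87.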

How the data were processed

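Single-cell 3-prime libraries (10x Genomics, version 3 chemistry) were made from sorted cells, per the labels' protocols. The submitters' processing notes name Cell Ranger 3.0.2, Seurat and the genome build mm10; the annotation, the strand setting and the cell filter are not given in the sources used here. The deposited values are raw UMI counts (1 row for each gene, 1 column for each cell, all ages together), and every value was whole and at least 0. Cells were assigned to ages and runs by the start of their names. Members, gene lists and named genes were chosen with earlier results of these data known.

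UMIs were summed per side and divided by the side's total to give CPM. Depth was 3930 to 48299 UMIs per cell on the glutamate side and 4231 to 46352 on the GABA side. Intervals of log2 ratios come from the exact binomial interval of a gene's UMIs between the sides. With 1 sample, no test across samples could be made. Besides list members, named genes were the 15 with the largest ratio in each direction among tested genes detected in 10% or more of cells on the higher side, without rule genes, sex-linked genes and unnamed gene models. Of these, 1 named gene of the GABA side and some list members are counted but not reported here. Of 474 list symbols 473 were in the table. Calls were tested on simulated data. The simulated side sums had counting error only, with no variation between cells, so calls of genes carried by few cells were not tested there. Alternatives changed thresholds, scaling, depth, the CPM added and the cells included. Scrublet, in Scanpy 1.11.5, found no score threshold and called 0 doublets, so no doublets were removed. Other software was Python 3.11.15, numpy 2.4.6, scipy 1.17.1, pandas 2.3.3 and matplotlib 3.10.9. Gene positions are from the GENCODE annotation of GRCm38, of which mm10 is the same assembly, and start windows from RefSeq.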

Additional observations from a re-analysis of the deposited data

Results flagged for a closer look

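Some listed genes had a ratio of at least 2 in 1 direction in E11 run 2 and in the other direction in a later run. The differences between runs were not tested, and age, run and depth cannot be told apart in them. Nkx2-1, a homeobox factor of the basal hypothalamus, had a log2 ratio (GABA over glutamate, CPM plus 5) of 1.24 in E11 run 2, then -1.17 in E14 run 2, -1.44 in P0 run 2 and -2.48 at P7. In E11 run 1 it was 2.80, on the same side as run 2, from 102 and 10.4 CPM. The E14 runs differed in direction, since the small E14 run 1 gave 1.33, from 155 and 58.6 CPM, while P0 run 1 gave -1.61. In the runs numbered 2 and at P7 its level on the GABA side went from 220 CPM to 93.7, 77.9 and 45.1 CPM, and on the glutamate side from 90.0 CPM to 218, 220 and 275 CPM. Nkx2-2 had 1.23 in E11 run 2 and -1.01 in P0 run 2, with 0.71 at P7. Epha4, an ephrin receptor gene, had 1.79 in E11 run 2 and -1.12 at P7, from 31.0 and 73.2 CPM. Nts, the neurotensin gene, had -1.31 in E11 run 2 and 2.11 in E14 run 2, from 24.5 and 1.82 CPM, but -0.72 in E14 run 1 and -1.17 at P7. Its 22 GABA-side UMIs in E11 run 2 came from 2 cells.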

How the results depend on the processing

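No p-value is behind these results, since the sides come from 1 sample, and fewer cells of a kind and less RNA per cell cannot be told apart in their sums. No paired analysis was possible because each age has 1 sample and the result comes from no test across samples. The number of genes with the required ratio depends on the size asked for: a ratio of 1.5 gave 286 on the GABA side and 465 on the glutamate side, a ratio of 3 gave 62 and 106, and a mean CPM of at least 20 gave 89 and 122. The other settings, on cells, scaling and depth, left both counts within 1.5 times the reported ones. The genes can differ where the count does not: with the GABA side limited to cells without a Dlx UMI, 198 and 215 genes had the ratio, of which 58 and 119 were among the reported 136 and 213, and 16 and 19 of those tested changed sign. Leaving out the 5% highest doublet scores, an alternative chosen after seeing the data, gave 146 and 221. It stands in for leaving out called doublets, which was not run because none were called.

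Of the 107 genes of the lists or named ones with the required ratio, 90 kept their direction under all 17 settings run per gene. The direction was kept in 1801 of 1819 gene and setting pairs. Most settings reuse the cells on which the genes were called, so a kept direction follows in large part from that choice. With the GABA side limited to its 73 cells without a Dlx UMI, a choice that removes Dlx UMIs by construction, log2 ratios changed sign for Dlx1 (-0.91), Dlx1as (-0.041), Dlx2 (-0.88), Dlx5 (-0.35), Dlx6 (-0.25), Dlx6os1 (-0.038), Erbb4 (-0.28), Hmx2 (-0.97), Hmx3 (-0.31), Npas1 (-0.16), Pax6 (-0.99), Lhx5 (0.50), Mab21l1 (0.81) and Unc5b (0.47). Without the Lhx9 cells of the glutamate side, they changed for Lhx9 itself (1.06), Nts (0.44) and Unc5b (0.010). In Xist cells, that of Sst changed (-0.95). Beyond what those choices fix, the cause was not tested.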

Other observations

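Several genes outside the lists, picked after their values were seen, stood beside listed ones on the genome. Within 100 kb of another gene higher on the same side lay 52 of the 135 placed GABA-side genes (38.5%) and 31 of the 212 placed glutamate-side genes (14.6%). Over all 10279 placed tested genes, 1.99% lay as near to a GABA-side gene and 3.53% to a glutamate-side gene. Overlapping and antisense models are among them, and without the strand setting their reads may not be separated. Gm14204, a minus-strand transcript at chr2:158595472-158610723 that begins next to the start of the plus-strand Slc32a1, stood at 171 CPM on the GABA side and 0.938 CPM on the glutamate side (log2 ratio 4.89). Slc32a1 itself stood at 160 CPM on the GABA side. C130093G08Rik, whose gene begins 2771 bp from Fezf1, stood at 17.4 and 439 CPM (-4.31), against 7.66 and 238 CPM for Fezf1. Pantr1, a noncoding RNA 926 bp from Pou3f3, stood at 228 and 67.2 CPM, and Sox2ot, which spans Sox2, at 120 and 34.1 CPM. Reads are counted at 3-prime ends, so levels of different genes are not compared per length here.

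Other genes with no place in the lists included the homeobox gene Prox1 (177 and 41.2 CPM) and the SoxD gene Sox6 (54.7 and 9.60 CPM) on the GABA side. On the glutamate side they included the secreted synapse organisers Cbln1 (10.0 and 85.5 CPM) and Cbln2 (1.77 and 32.3 CPM), the adhesion gene Cntnap2 (25.3 and 166 CPM) and the retinoic acid binding protein gene Crabp1 (26.7 and 292 CPM), of which 5 cells held 41.0% of the 4045 glutamate-side UMIs. Within the GABA side, the 128 cells with an Otp UMI held Nhlh2 at 162 CPM, against 23.6 CPM in the other 671. Sst stood at 690 and 27.1 CPM in them, but 15 of the 128 cells had an Sst UMI and 5 cells held 81.3% of all GABA-side Sst UMIs.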
